A study of Mus musculus with 8 samples.

Results

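The transcripts described here are 10 inflammatory cytokines and natural antagonists, measured in mouse epididymal fat: Tnf, Il1a, Il1b, Il6, Osm, Il18, Il33 and Il10 as ligands, and Il1rn and Il1r2 as blockers of interleukin 1. They were taken by name from the 22180 genes that the array platform annotation pairs with a probe set of their own, and each of the 10 had 1 such probe set. Left epididymal pads of 8 C57BL/6 mice, all males, gave the RNA, with 1 Affymetrix Mouse Gene 2.0 ST array per mouse. In the GC+ group, 4 mice received prednisolone, a synthetic glucocorticoid, every day at a labelled dose of 40 mg per kg per square metre. In the GC- group, 4 mice received the vehicle alone, a sweet potato puree. Treatment ran for 4 weeks, starting at 6 weeks of age, and fat was taken at 10 weeks. Mice of both groups were caged singly and from 3 weeks of age ate fat-rich chow high in n-6 lipids, fat giving 45% of its energy, so neither group had a low-fat diet. The comparison asks how the inflammatory transcripts of this depot stand under chronic glucocorticoid on that diet.

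Tumour necrosis factor and interleukin 1 are early signals of inflammation that act through NF-kB, and interleukin 6 and oncostatin M act through receptors that share the gp130 chain and signal to STAT3. Interleukin 1 is checked by a receptor antagonist, Il1rn, which occupies the receptor without signalling, and by a decoy receptor, Il1r2, which binds the ligand without signalling. In adipose tissue of obese animals macrophages are a main source of Tnf and Il1b, while interleukin 33 comes mainly from stromal and mesothelial cells. Glucocorticoids, bound to their receptor, are known to repress many cytokine genes and to restrain NF-kB and AP-1.

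Promoter windows of the 3 members with the lowest p-values, Il1rn, Tnf and Il33, are shown so that the letters near their starts can be read beside the values below. They are RefSeq sequences of GRCm38.p6, from 250 bases before to 50 bases after a transcript start, 5′ to 3′ on the strand of the gene, and for Il1rn and Il33 the most upstream start is shown. Capitals mark matches on either strand to 4 motifs: GGGANNNNCC for NF-kB, TGANTCA for AP-1, TATAAA for the TATA box, and AGAACANNNTGT for the glucocorticoid receptor. The Il1rn window is chr2:24336610-24336909 on the plus strand, the Tnf window chr17:35201958-35202257 on the minus strand, and the Il33 window chr19:29924863-29925162 on the plus strand.
Il1rn: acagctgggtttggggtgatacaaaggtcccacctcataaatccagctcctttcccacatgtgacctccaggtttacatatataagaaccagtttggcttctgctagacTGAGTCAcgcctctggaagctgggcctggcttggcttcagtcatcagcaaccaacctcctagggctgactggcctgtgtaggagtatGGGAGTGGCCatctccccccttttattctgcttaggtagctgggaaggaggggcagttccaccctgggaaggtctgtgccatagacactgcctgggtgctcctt
Tnf: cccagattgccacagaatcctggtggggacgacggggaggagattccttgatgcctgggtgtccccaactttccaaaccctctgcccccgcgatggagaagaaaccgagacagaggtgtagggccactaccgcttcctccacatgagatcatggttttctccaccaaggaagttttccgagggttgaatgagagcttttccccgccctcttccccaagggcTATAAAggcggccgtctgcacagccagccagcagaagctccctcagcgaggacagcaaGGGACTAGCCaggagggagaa
Il33: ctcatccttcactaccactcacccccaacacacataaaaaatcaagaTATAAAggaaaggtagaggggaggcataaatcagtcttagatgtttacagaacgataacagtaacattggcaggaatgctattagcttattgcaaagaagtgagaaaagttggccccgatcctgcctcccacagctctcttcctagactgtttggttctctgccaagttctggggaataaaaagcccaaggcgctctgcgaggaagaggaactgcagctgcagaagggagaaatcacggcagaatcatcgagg
In the Il1rn window the capitals are an AP-1 match at position -141 and an NF-kB match at position -54, counted from the transcript start to the first base of the match. In the Tnf window they are a TATA match at -29 and an NF-kB match at 30, and the 1 match in the Il33 window is a TATA match at -203. Of the 10 members, 8 had windows in the table, 11 windows in all, and Il10 and Osm had none. NF-kB matches lay in 3 of the 11 windows (Tnf, Il1rn and Il6), where 20.7% of all 32851 windows hold one, and the 2 matches in the Il6 window overlap. AP-1 matches lay in 3 of the 11 windows (Il1a, Il1rn and Il6), against 7.81% of all windows, and TATA matches in 7 of the 11, of 6 members, against 13.6%. Il1rn has 3 of the 11 windows and Il33 has 2. The 2 Il1rn windows not shown overlap each other and hold no NF-kB or AP-1 match. The Il33 window not shown has its TATA match at -29. TATA matches also lay at -175 in the Il18 window and at 15 in an Il1rn window not shown. The glucocorticoid receptor motif matched in 0 of the 11 windows and in 0.414% of all windows. These are matches of letters, and no binding was measured.

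The deposited values are log2 expression values after robust multiarray averaging (RMA), so a difference of 1 is a 2-fold change. Array medians lay between 6.09 and 6.13, and pairs of arrays correlated over all genes at 0.946 to 0.991. Adipocyte markers were bright in both groups, and Adipoq, the adiponectin gene, read 12.22, 12.04, 12.07 and 12.29 in GC+ mice 1 to 4 and 11.74, 12.16, 12.08 and 12.12 in GC- mice 1 to 4. Transcripts of the epididymis, the duct beside this fat pad, were found in some GC+ and some GC- mice. Gpx5, which encodes a glutathione peroxidase of that duct, read 11.27, 13.81, 4.57 and 4.76 in the GC+ mice and 13.78, 4.19, 8.69 and 13.61 in the GC- mice. An epididymis score, the mean over 8 markers of each value minus its 8-mouse mean, was over 1 in GC+ mouse 2 (4.28) and in GC- mice 1 (2.31) and 4 (1.03). Results are also given without those 3 mice, which leaves 3 GC+ mice and GC- mice 2 and 3. That subset is not free of epididymis transcripts: GC+ mouse 1, with a score of 0.54 and Adam7, an epididymal gene, at 9.15, stays in it, as does GC- mouse 3 with its Gpx5 of 8.69.

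Across the 10 members, mean expression was higher in GC+ than in GC- mice for 8 genes and lower for Il18 and Il33. With limma, 0 of the 10 passed an adjusted p of 0.05, where 0% of the 22180 genes tested passed and the lowest adjusted p of any gene was 0.791. An unadjusted p under 0.05 was reached by 1244 genes, 5.61% of all. Of the members, Il1rn and Tnf reached it, both higher in GC+, where 3.51% of all genes did so with a higher and 2.1% with a lower mean in GC+. The values of the groups overlapped in each of the 10 members, while 3.25% of all genes had groups that did not overlap and 1.99% had every GC+ mouse above every GC- mouse. The median difference over the members was 0.12, against 0.02 over all genes, of which 56.4% had a higher mean in GC+. That median was 0.07 without GC+ mouse 1, 0.19 without GC+ mouse 2, 0.05 without GC- mouse 1, 0.21 without GC- mouse 3 and 0.07 without GC- mouse 4. Without GC- mouse 1 the number of members with a higher mean in GC+ was 5, and without the 3 mice of epididymis score over 1 it was 5 as well, with a median of 0.00. Il1a, Il1b, Il1r2, Il6 and Il10 were among the dimmest 33.3% of genes, with 8-mouse means under 5.82.

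**Figure D1:**
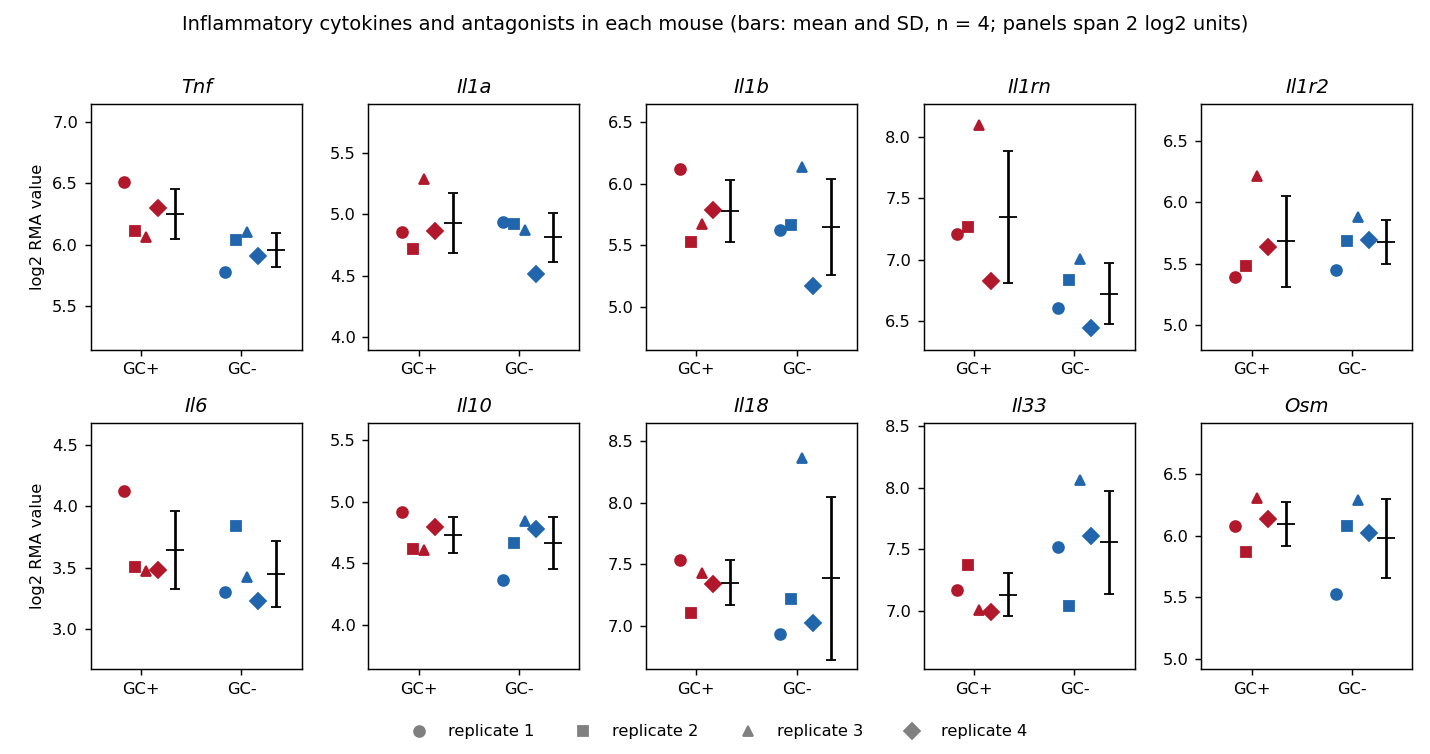
Each panel plots the log2 RMA value of 1 gene in the 4 GC+ mice (left, red) and the 4 GC- mice (right, blue), with the replicate number given by the symbol and the group mean and SD beside the points (n = 4). The groups overlap in every panel, and GC+ mouse 3 stands highest for Il1rn at 8.10, as GC- mouse 3 does for Il18 at 8.36.

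Tnf, a cytokine of activated macrophages that inhibits insulin signalling in adipocytes, read 6.51, 6.12, 6.07 and 6.30 in GC+ mice 1 to 4. It read 5.78, 6.04, 6.10 and 5.91 in GC- mice 1 to 4. The GC+ values lay higher apart from a narrow overlap, since GC- mouse 3 lay above GC+ mouse 3. Tnf averaged 6.25 ± 0.20 in GC+ and 5.96 ± 0.14 in GC- mice (SD, n = 4 each), a difference of 0.29 ± 0.12 (SE), with a 95% interval of 0.01 to 0.57. That is 1.22-fold, and the limma p was 0.0421 unadjusted and 0.791 adjusted over all genes. The difference was between 0.20 and 0.35 when each mouse was left out in turn, lowest without GC+ mouse 1, and 0.22 without the 3 mice of epididymis score over 1. Lta and Ltb, lymphotoxin genes that neighbour Tnf, differed by 0.08 ± 0.09 and 0.02 ± 0.12.

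Il1b, the interleukin 1 that caspase-1 cleaves into its active form, read 6.12, 5.53, 5.67 and 5.79 in the GC+ mice. In the GC- mice it read 5.63, 5.67, 6.13 and 5.17. The highest value of each group was nearly the same, and the lowest lay in GC- mouse 4. The difference of 0.13 ± 0.21 had an interval of -0.34 to 0.60 and an adjusted p of 0.903 by limma. Without GC- mouse 4 it was -0.032, without GC+ mouse 1 it was 0.01, without GC+ mouse 2 it was 0.21, and without GC- mouse 3 it was 0.29. Array weights gave 0.32, and without the 3 mice of epididymis score over 1 it was -0.039.

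Il1a, its relative that acts as an alarm signal released from damaged cells, was dim, at 4.86, 4.72, 5.28 and 4.87 in GC+ and 4.94, 4.92, 4.88 and 4.52 in GC- mice. GC+ mouse 3 was the highest and GC- mouse 4 the lowest, and the other 6 mice lay between 4.72 and 4.94. Its difference was 0.12 ± 0.15 (limma adjusted p = 0.872), and between 0.00 without GC+ mouse 3 and 0.19 without GC+ mouse 2 when each mouse was left out in turn, with 0.02 without GC- mouse 4.

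Il1rn, the interleukin 1 receptor antagonist, had the widest difference of the 10 members. It read 7.21, 7.27, 8.10 and 6.83 in GC+ mice 1 to 4, and 6.61, 6.84, 7.00 and 6.44 in GC- mice 1 to 4. GC+ mice 1, 2 and 3 lay above every GC- mouse, while GC+ mouse 4 lay below GC- mice 2 and 3. The means were 7.35 ± 0.53 in GC+ and 6.72 ± 0.25 in GC- mice (SD, n = 4 each), and they differed by 0.63 ± 0.25, with an interval of 0.05 to 1.20. As a ratio that is 1.54-fold, with an interval of 1.03 to 2.30, a limma p of 0.0372 unadjusted and 0.791 adjusted. The difference was 0.38 ± 0.17 without GC+ mouse 3, 0.80 without GC+ mouse 4, and 0.46 ± 0.35 without the 3 mice of epididymis score over 1. GC+ mouse 3 also had the highest score of the 4 measured spermatid markers, at 1.48, against -0.94 to 1.16 in the other 7 mice. The mouse at 1.16, GC- mouse 1, had the second lowest Il1rn value, at 6.61. Whether the spermatid score bears on Il1rn was not tested.

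Il1r2, the decoy receptor for interleukin 1, read 5.39, 5.48, 6.21 and 5.64 in GC+ and 5.45, 5.69, 5.88 and 5.70 in GC- mice. As with Il1rn and Il1a, GC+ mouse 3 was the highest of all 8, but here the other 3 GC+ mice lay below GC- mice 2, 3 and 4. Its difference was 0.00 ± 0.18, with an interval of -0.41 to 0.42 (limma adjusted p = 0.997), and it was -0.17 without GC+ mouse 3 and -0.07 without GC- mouse 1. Il1rn and Il1r2, both antagonists of interleukin 1, thus differed by 0.63 and 0.00 in the same mice, and a test between genes was not run.

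**Figure D2:**
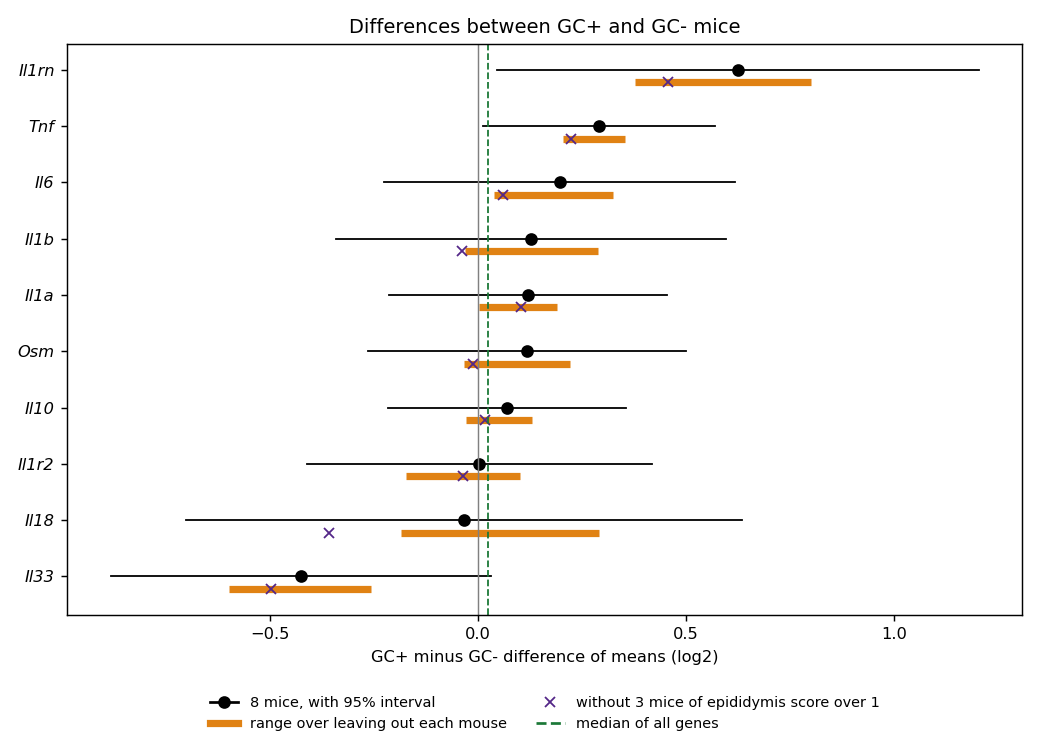
Black points give the GC+ minus GC- difference of means on the log2 scale with its 95% interval for each member, orange bars the range when each mouse is left out in turn, crosses the value without the 3 mice of epididymis score over 1, and the dashed line the median of all genes (0.02). Intervals of Il1rn and Tnf lie just above 0, and the interval of Il33 reaches 0.03. The orange ranges of Il1rn, Tnf, Il33, Il6 and Il1a stay on their side of 0, that of Il1a starting at 0.0021.

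Il6, which drives the acute phase response, was the dimmest member, with an 8-mouse mean in the lowest 5.34% of all genes. It read 4.12, 3.51, 3.48 and 3.48 in GC+ and 3.31, 3.84, 3.43 and 3.23 in GC- mice. GC+ mouse 1 stood apart from the rest of its group, and GC- mouse 2 was above the other 3 GC+ mice. The difference of 0.20 ± 0.19 (limma adjusted p = 0.834) was 0.04 without GC+ mouse 1, 0.33 without GC- mouse 2, 0.31 with array weights and 0.06 without the 3 mice of epididymis score over 1.

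Osm, oncostatin M, a product of macrophages and neutrophils, read 6.08, 5.87, 6.30 and 6.13 in GC+ and 5.53, 6.08, 6.29 and 6.02 in GC- mice. The groups covered the same range apart from GC- mouse 1, the lowest of the 8. Osm differed by 0.12 ± 0.17 (interval -0.26 to 0.50, limma adjusted p = 0.888), by -0.033 without GC- mouse 1, by 0.05 without GC+ mouse 3, by 0.19 without GC+ mouse 2, by 0.22 without GC- mouse 3 and by -0.012 without the 3 mice of epididymis score over 1.

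Il10, an anti-inflammatory cytokine that restrains macrophages, read 4.91, 4.62, 4.61 and 4.79 in GC+ and 4.36, 4.67, 4.84 and 4.78 in GC- mice. Here too GC- mouse 1 was the lowest, and the other 7 mice lay within 4.61 to 4.91. The difference was 0.07 ± 0.13, with an interval of -0.22 to 0.36 (limma adjusted p = 0.913), and it ran from -0.029 without GC- mouse 1 to 0.13 without GC- mouse 3, with 0.01 without GC+ mouse 1.

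Il33, an alarm cytokine of stromal cells that maintains regulatory T cells and group 2 innate lymphoid cells in visceral fat, was the member with the largest lower mean in GC+ mice. It read 7.17, 7.37, 7.00 and 6.99 in GC+ mice 1 to 4 and 7.52, 7.04, 8.06 and 7.61 in GC- mice 1 to 4. GC- mice 1, 3 and 4 lay above every GC+ mouse, while GC- mouse 2 lay among them. Il33 averaged 7.13 ± 0.18 in GC+ and 7.56 ± 0.42 in GC- mice (SD, n = 4 each), a difference of -0.43 ± 0.20 with an interval of -0.88 to 0.03. That is 0.745-fold, with a limma p of 0.0647 unadjusted and 0.791 adjusted. The difference was -0.26 without GC- mouse 3, -0.60 without GC- mouse 2 and -0.50 without the 3 mice of epididymis score over 1. Il33 kept its negative sign in all 18 alternatives run, some of which, named at the end, cannot change its difference.

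Il18, an interleukin 1 relative also cleaved by caspase-1, read 7.53, 7.11, 7.42 and 7.34 in GC+ and 6.93, 7.22, 8.36 and 7.02 in GC- mice. GC- mouse 3 was far above the other 7, which lay between 6.93 and 7.53. The difference was -0.03 ± 0.29 (interval -0.70 to 0.63, limma adjusted p = 0.983). Without GC- mouse 3 it was 0.29 ± 0.13, without GC+ mouse 2 it was 0.05, and without the 3 mice of epididymis score over 1, where GC- mouse 3 is 1 of 2 GC- mice, it was -0.36 ± 0.31. Il18r1, a chain of the Il18 receptor, read 7.50 in that mouse, against 5.97 to 6.48 in GC+ mice and 5.87 to 6.26 in the other GC- mice.

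The extremes of the members fell in few mice. GC+ mouse 1 had the highest value of Tnf, Il6 and Il10, GC+ mouse 3 that of Il1a, Il1rn, Il1r2 and Osm, and GC- mouse 3 that of Il1b, Il18 and Il33. GC- mouse 1 had the lowest value of Tnf, Il10, Il18 and Osm, and GC- mouse 4 that of Il1a, Il1b, Il1rn and Il6, so that 8 of the 10 lowest values lay in these 2 GC- mice. Both had epididymis scores over 1 and the lowest macrophage scores, -0.63 and -0.52. GC+ mouse 2, with the highest epididymis score, held none of the 10 highest or lowest values.

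Macrophage markers were higher by mean in GC+ mice for 11 of 12 genes, where 56.4% of all genes were, and 0 passed the adjusted threshold. Adipocyte markers were higher for 7 of 8 genes and mesothelial markers for 5 of 6, so this lean was not particular to macrophages. Progenitor markers were higher for 3 of 5, T and NK cell markers for 3 of 8 and endothelial markers for 1 of 5. The mean level of the macrophage markers ran from 9.71 to 10.34 in GC+ and from 9.22 to 10.56 in GC- mice. Their direction leans on GC- mice 1 and 4, with macrophage scores of -0.63 and -0.52. Without the 3 mice of epididymis score over 1, the scores were 0.49, 0.26 and -0.10 in GC+ mice 1, 3 and 4. In GC- mice 2 and 3 they were -0.05 and 0.70. Adgre1, which encodes F4/80, read 9.77, 9.10, 9.71 and 9.24 in GC+ and 8.29, 9.01, 10.41 and 8.34 in GC- mice. The macrophage score was highest in GC- mouse 3 (0.70) and GC+ mouse 1 (0.49), which were also the mice with the highest Il1b and Il18. Mesothelial markers, 6 of 6 measured, had mean levels of 8.05 to 8.81 in GC+ and 7.22 to 9.67 in GC- mice, and Upk3b, a mesothelial membrane protein, was highest in GC- mouse 3 at 11.04, the mouse with the highest Il33. It was lowest in GC- mouse 4 at 7.82, which had the second highest Il33. The score of 5 adipose progenitor markers was highest in GC- mice 3 (0.29) and 4 (0.15), the mice with the highest Il33, and lowest in GC- mouse 1 (-0.27), which had the third highest Il33. The endothelial score, over 5 markers, was highest in GC+ mouse 4 (0.48), which had the lowest Il33, and lowest in GC- mouse 1 (-0.43). Mast cell markers, 6 of 6 measured with 2 higher and 4 lower by mean in GC+, had mean levels of 6.36 to 7.01 in GC+ mice. In GC- mice the mean levels were 6.44 to 7.39, again highest in GC- mouse 3. Neutrophil markers, 9 of 9 measured with 4 higher and 5 lower by mean in GC+, ran from 5.39 to 5.76 in GC+ and from 5.56 to 5.85 in GC- mice. In whole tissue, fewer cells of a type and less RNA per cell cannot be told apart, and the part of these cell types in the cytokine values was not tested.

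**Figure D3:**
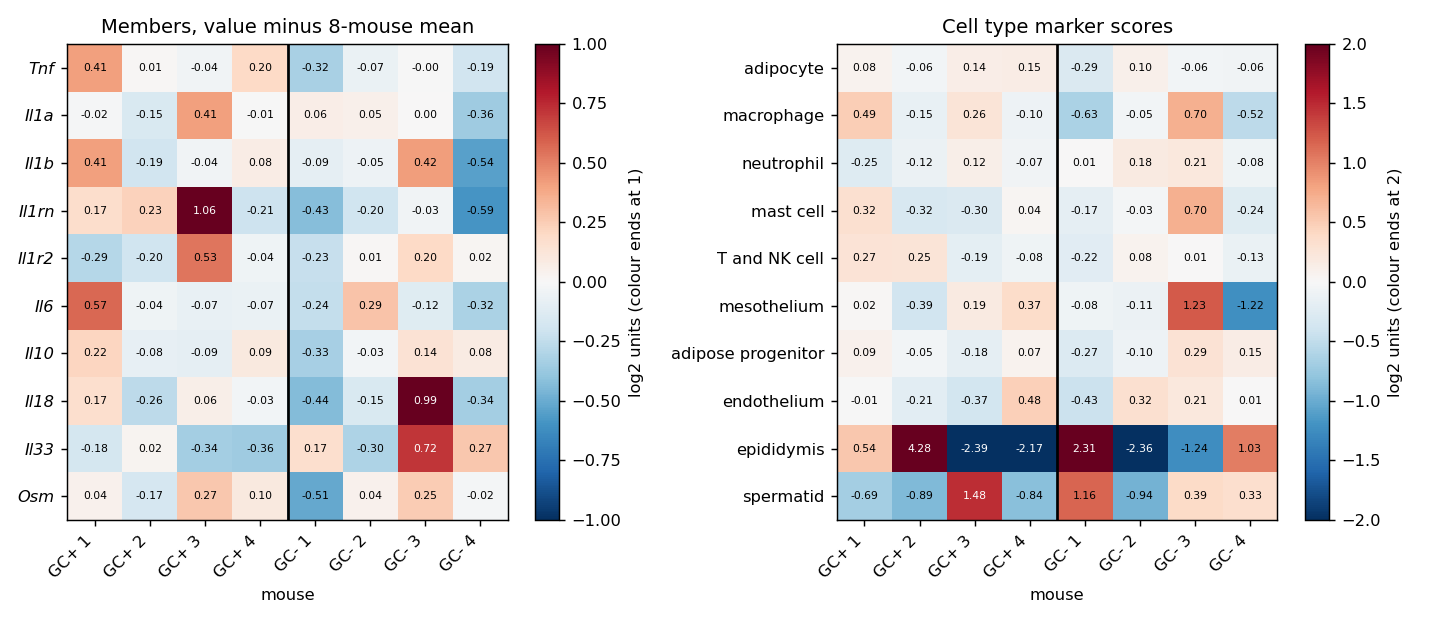
The left panel shows each member's log2 value minus its 8-mouse mean for GC+ mice 1 to 4 and then GC- mice 1 to 4, and the right panel the mean of the same quantity over the markers of each cell type. GC- mouse 3 is high for Il18 (0.99), Il33 (0.72), macrophage (0.70) and mesothelial (1.23) markers, and GC- mice 1 and 4 are low for most members and for macrophage markers.

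The rest of these pathways was read from 5 lists, of which 79 of 85 genes were measured by a probe set of their own. Il36rn, Il1rl1, Irak4, Ripk1, Chuk and Nfkb1 were not analysed here. By mean, 50 of the 79 were higher in GC+ mice and 0 passed the adjusted threshold of limma, and 1 of the 79, Junb, had every GC+ mouse above every GC- mouse, a pattern that 1.99% of all genes showed. Without the 3 mice of epididymis score over 1, 31 of the 79 were higher.

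Related ligands had 12 of 20 genes higher and a median difference of 0.04. Ifng, the type 1 lymphocyte cytokine, differed by 0.27 ± 0.11, Il4, a type 2 cytokine, by 0.29 ± 0.12, and Il11, another gp130 ligand, by 0.22 ± 0.11, all 3 at low signal. Tgfb1, the brightest of the list, differed by 0.21 ± 0.13. None of these 4 passed (limma adjusted p = 0.791 for each).

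Receptors and soluble decoys had 7 of 14 genes higher and a median of 0.01. Il10rb, a chain of the Il10 receptor, read 10.33, 10.12, 10.19 and 9.99 in GC+ and 9.47, 9.97, 10.07 and 9.63 in GC- mice. All GC+ mice but mouse 4 lay above every GC- mouse, and the difference was 0.37 ± 0.15 (limma adjusted p = 0.791). Tnfrsf1a, the main Tnf receptor, differed by 0.17 ± 0.12. Il18bp, the soluble inhibitor of Il18, differed by -0.22 ± 0.13, and Il6st, which encodes gp130 and was the brightest of this list, by -0.00205 ± 0.13.

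Genes that process and release cytokines were higher by mean in 9 of 10 cases, where 56.4% of all genes were. Their median was 0.10, and 0 reached an unadjusted p of 0.05 by limma. In Casp1, Casp4, Casp8, Nlrc4, Aim2, Gsdmd, Adam17 and Rhbdf2, GC- mice 1 and 4 read lower than every other mouse. Nlrp3 and Pycard did not show this. Both mice have an epididymis score over 1. GC+ mouse 2, with the highest score (4.28), read highest of all mice for Nlrc4 (6.07) and Rhbdf2 (8.09). For Casp1, Casp4 and Gsdmd only GC- mice 1 and 4 read lower than GC+ mouse 2. Whether the score bears on these genes was not tested. Rhbdf2, which carries the Tnf sheddase to the cell surface, differed by 0.30 ± 0.14. Casp1, the protease that matures Il1b and Il18, read 8.46, 8.10, 8.40 and 8.25 in GC+ and 7.63, 8.49, 8.32 and 7.64 in GC- mice, low in the same GC- mice 1 and 4. Its difference was 0.28 ± 0.21. Nlrc4, an inflammasome sensor, differed by 0.20 ± 0.19, and Casp8, the brightest of the list, by 0.12 ± 0.11.

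Signal transducers had 10 of 17 genes higher and a median of 0.05. The 3 with the lowest p were all lower by mean in GC+ mice: Jak2, a kinase of cytokine receptors, by -0.25 ± 0.13, Irak1, a kinase below the interleukin 1 receptor, by -0.31 ± 0.16, and Traf6, the ubiquitin ligase below it, by -0.12 ± 0.08. Irak1 was highest in GC- mice 1 and 4, at 9.77 and 9.29, against 8.89 to 9.06 in GC+ mice. Jak1, the brightest of the list, differed by 0.13 ± 0.11.

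Response and feedback genes had 12 of 18 genes higher and a median of 0.12. Nfkbia, the inhibitor of NF-kB that is itself induced by NF-kB and by glucocorticoids, read 9.31, 9.29, 9.51 and 9.55 in GC+ mice. In GC- mice it read 9.45, 9.61, 10.34 and 10.12. All GC- mice but mouse 1 lay above every GC+ mouse. The difference was -0.47 ± 0.20, and its limma p was 0.0424 unadjusted and 0.791 adjusted over all genes. Junb, an AP-1 subunit, read 8.33, 8.11, 8.05 and 8.04 in GC+ and 7.88, 8.01, 7.94 and 7.90 in GC- mice, a difference of 0.20 ± 0.09 with groups that did not overlap (limma adjusted p = 0.791). Socs1, a feedback inhibitor of Jak kinases, differed by 0.21 ± 0.11. Lcn2, an acute phase protein that the epididymis also makes, was the brightest and differed by 0.05 ± 0.78. It ranged from 9.28 to 12.44 in GC+ and from 8.79 to 11.62 in GC- mice, and its 4 highest values lay in GC+ mice 1 and 2 and GC- mice 1 and 4, the 4 mice with the highest epididymis scores.

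**Figure D4:**
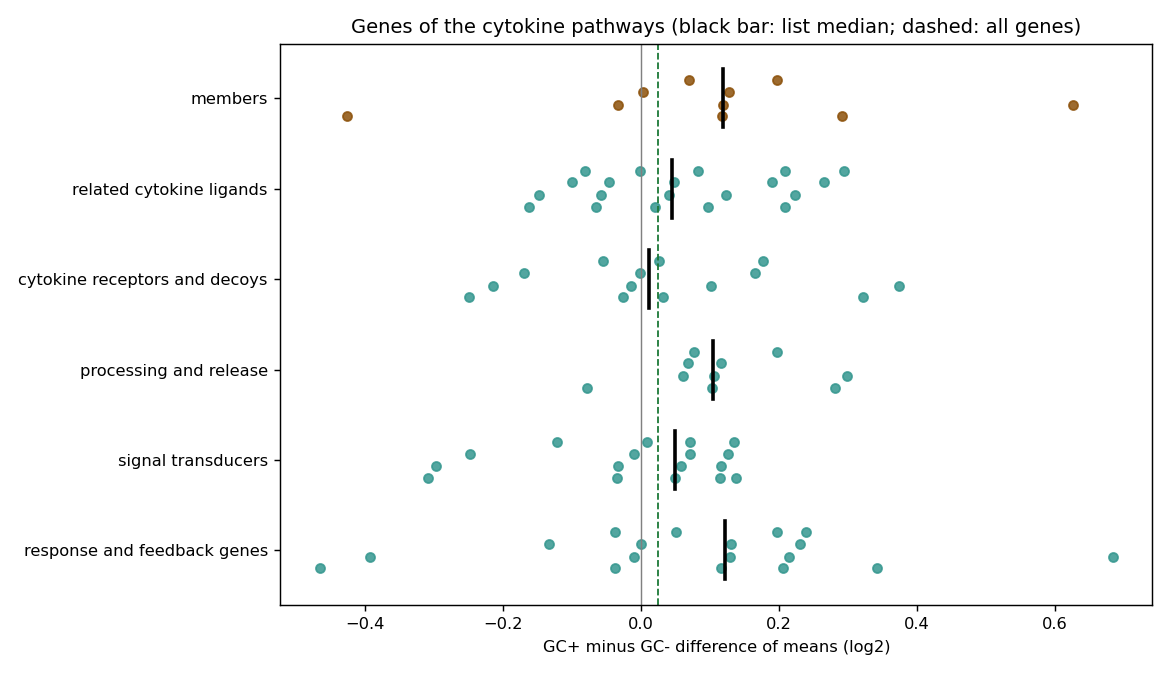
Each point is the GC+ minus GC- difference of means (log2) of 1 gene, for the 10 members and the 5 pathway lists, with black bars at the list medians and a dashed line at the median of all genes (0.02). List medians run from 0.01 for receptors to 0.12 for response genes, and single genes lie on both sides of 0 in every list.

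For the 5 members above the dimmest 33.3% of genes, the genes whose values ran most alike over the 8 mice, by Pearson's r, are given as a description. Tnf ran most like Pamr1 (r = 0.988), the matrix metalloprotease gene Mmp27 (r = 0.981) and Ptafr, the receptor for platelet-activating factor (r = 0.967). Ptafr read 10.22, 9.10, 9.23 and 9.57 in GC+ and 8.12, 9.01, 9.47 and 8.57 in GC- mice, and differed by 0.74 ± 0.33. Il1rn ran most like Phtf2 (r = 0.975), Tnfrsf12a, the receptor for the Tnf relative TWEAK (r = 0.961), and Ahsa1, a co-chaperone of Hsp90 (r = 0.957). Tnfrsf12a read 8.26, 8.28, 9.10 and 8.19 in GC+ and 7.81, 7.93, 8.01 and 7.83 in GC- mice, and differed by 0.56 ± 0.19 (limma adjusted p = 0.791). Every GC+ mouse lay above every GC- mouse, a pattern that 1.99% of all genes showed. Tnfrsf12a was picked for running like Il1rn, itself higher by mean in GC+. Il18 ran most like the phosphatase gene Cdc25b (r = 0.988), Zbtb8b (r = 0.988) and the collagen-modifying enzyme Plod2 (r = 0.987), and Plod2 too was highest in GC- mouse 3, at 8.53. Il33 ran most like the DNA demethylase gene Tet1 (r = 0.979), the muscle protein gene Pdlim3 (r = 0.977) and Ints6l (r = 0.968). Osm ran most like Dennd1a (r = 0.973), Iqsec2 (r = 0.973) and the kinase gene Dapk1 (r = 0.971). Each was picked as the closest of all genes above that level, and the 8 mice behind every r are the same.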

How the data were processed

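The deposited values are log2 expression values that the authors made by RMA in Affymetrix Expression Console, per the labels, from 100 ng of total RNA per mouse. Partek 6.6 is named with no role in the submitters' processing notes. No source used here gives the annotation version or build. RMA equalizes array distributions, so a shift common to all genes is removed. Of 41345 probe sets, 23521 had 1 gene symbol in the platform annotation, 1814 several and 16010 none. The probe set with the highest mean was kept for each of 22180 genes, dim genes included. GC+ was compared with GC- across all genes in limma 3.58.1 (R 4.3.3, lmFit and eBayes, no covariate), with Benjamini-Hochberg adjustment over all genes. The fit was also tried on simulated independent values with 1 common spread for all genes. That setting is simpler than these data, where the spread differs widely between genes. The number of arrays limits precision. The members and lists were chosen with earlier results of these data known. Named genes are the 10 members, from each pathway list the 3 with the lowest p and the brightest, and for brighter members the 3 most alike; Adipoq, Gpx5, Adam7, Adgre1, Upk3b, Il18r1, Lta and Ltb stand beside a member. Alternatives changed the dim gene filter, normalization, probe set choice, variance model, array weights and replicate block, and left out mice. The epididymis score alternatives were chosen after seeing the data. Figures were drawn with matplotlib 3.10.9.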

Additional observations from a re-analysis of the deposited data

Results flagged for a closer look

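Values far from the rest of their group of 4 were looked for in 60 groups of the 10 members and 20 pathway genes, where chance gives about 1 such value in 20 groups, and 2 were found. Il6 read 4.12 in GC+ mouse 1, against 3.48 to 3.51 in the other GC+ mice. Il1a read 4.52 in GC- mouse 4, against 4.88 to 4.94 in the other GC- mice. Both genes were among the dimmest 33.3% of genes.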

How the results depend on the processing

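Of 18 alternatives, none brought a member or pathway gene past the adjusted threshold. The 10 members kept the sign of their difference in 155 of 168 values, and Tnf, Il1rn, Il1a, Il6 and Il33 kept it in every alternative in which they were tested. The dim gene filters, probe set averaging, the variance model and the replicate block cannot change a member's difference. Their values count among the 155 by construction. The adjusted p over these alternatives ran from 0.524 to 0.979 for Tnf and Il1rn and from 0.515 to 0.979 for Il33. Without the dimmest 33.3% of genes 3 of 5 remaining members were higher in GC+, and without the dimmest 50% it was 1 of 3, with a median of -0.033, because fewer members were tested. Leaving out 1 mouse at a time gave 5 to 9 members higher and a median over the members of 0.05 to 0.21. Over those fits the difference ran from 0.00 to 0.19 for Il1a, 0.04 to 0.33 for Il6, -0.032 to 0.29 for Il1b, -0.17 to 0.10 for Il1r2, -0.029 to 0.13 for Il10, -0.18 to 0.29 for Il18 and -0.033 to 0.22 for Osm. Without the 3 mice of epididymis score over 1, 5 members and 31 pathway genes were higher, and Il1b, Il1r2 and Osm differed by -0.039, -0.035 and -0.012. Array weights gave -0.057 for Il1r2, 0.10 for Il18, 0.32 for Il1b and 0.31 for Il6, and subtracting array medians gave -3.25e-05 for Il1r2. The cause of these changes was not tested. With the epididymis score as covariate 1 gene passed over all genes, Peg10 (1.04 ± 0.08, limma adjusted p = 0.0487), named after its value was seen, against 0 in the main comparison. With the replicate number as a block, 0 genes passed and the call of no member changed. Deviations of same-numbered mice correlated at -0.14, -0.49, 0.11 and -0.23, which gave no sign that the numbers pair the mice. These correlations cannot exclude pairing, since they rest on 4 mice per group and include the widely varying epididymis transcripts. With 4 arrays per group standard errors of the difference had a median of 0.13 over all genes.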
